A study of Homo sapiens with 13 samples.

Results

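The 4E-BPs, S6 kinases, MNKs and LARP1 are the signalling proteins that tie mTOR and MAP kinase activity to cap-dependent translation. 10 genes were taken by symbol from the tables of both drugs, with no threshold on their values: EIF4EBP1 and EIF4EBP2 (the 4E-BPs), EIF4E2 (a cap-binding homologue of eIF4E), RPS6KB1 and RPS6KB2 (the p70 S6 kinases), RPS6KA1 and RPS6KA3 (the p90 ribosomal S6 kinases, RSKs), MKNK1 and MKNK2 (the MNKs) and LARP1. Earlier results of these data were known when the genes were chosen. Each was read from 1 entry per table, the one with the highest mean footprint level where a symbol had several. All 10 were among the 10516 genes that passed the minimum level in the Silvestrol experiment (a mean ribosome footprint level of at least 1 RPKM and a mean mRNA level of at least 0.3 RPKM), and 9 were among the 7102 genes that passed in the INK128 experiment.

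In cells, mTOR complex 1 phosphorylates the 4E-BPs, which otherwise hold eIF4E away from the scaffold eIF4G, and so sets how much eIF4F, the complex of eIF4E, eIF4G and the helicase eIF4A, can form at the cap. The p70 S6 kinases are a second branch of mTOR complex 1 and phosphorylate RPS6, eIF4B and PDCD4, an inhibitor of eIF4A. The RSKs act downstream of ERK and share substrates with the S6 kinases, the MNKs phosphorylate eIF4E on eIF4G, and LARP1 binds mRNAs with a 5′ terminal oligopyrimidine (TOP) tract.

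The cells were MDA-MB-231, an established triple-negative breast cancer line. Ribosome footprints (RFs), the mRNA fragments that ribosomes protect from nuclease, were sequenced without treatment (1 library), after 1 h of DMSO or of Silvestrol, an eIF4A inhibitor used at 25 nM (1 library each), and after 2 h of either (2 libraries each, from passages 3 and 4, here replicates 1 and 2). mRNA was sequenced at 2 h from passage 3, in 1 library per treatment. In a separate experiment RFs and total RNA were sequenced after 2 h of DMSO or 200 nM INK128, a catalytic inhibitor of mTOR, with 1 library per arm. All other libraries than replicate 2 came from passage 3, and the replicates are cultures of 1 cell line, so no p-value reaches beyond these cultures. Counted reads per RF library ran from 2652423 (Silvestrol 2 h, replicate 2) to 31188148 (DMSO 1 h), and the mRNA libraries held 50315607 (DMSO) and 24792922 (Silvestrol) reads. The deposited INK128 values carry no read counts, so the depth behind them is unknown here. Of the cell line's markers, VIM, CD44, AXL and CAV1 were at 107 RPKM or more in each of the 4 control RF libraries, ESR1, PGR and CDH1 were at or near 0, and GATA3, listed as a marker that should be near 0, was at 6.54 to 8.45 RPKM. One label field gives 1 h for the Silvestrol library of replicate 1 that its title places at 2 h, and another lists the mRNA control as untreated where its title names DMSO. Titles decided the groups.

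In control cells the 10 genes spanned more than an order of magnitude in footprints. Over the 4 control RF libraries (untreated, DMSO 1 h and both DMSO 2 h), EIF4EBP1 stood highest with 217 ± 42.5 RPKM (SD, n = 4). LARP1 followed with 73.4 ± 4.38 RPKM and RPS6KA3 with 67.1 ± 4.28 RPKM, and their control ranges overlapped. EIF4E2 had 37.8 ± 2.24 RPKM, above the ranges of all members that follow. MKNK2 (24.9 to 34.3 RPKM), RPS6KA1 (26.8 ± 3.40 RPKM) and EIF4EBP2 (23.6 ± 6.09 RPKM) overlapped with one another. RPS6KB1 had 17.3 ± 0.410 RPKM, the narrowest spread of the 10 genes, and its range overlapped with that of EIF4EBP2. MKNK1 (15.1 ± 1.19 RPKM) and RPS6KB2 (12.9 ± 1.49 RPKM) were lowest and overlapped.

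Translation efficiency (TE), the RF level over the mRNA level, put the S6 kinases at opposite ends. RPS6KB1 had 16.7 RF RPKM over 3.04 mRNA RPKM in the DMSO libraries of replicate 1, a TE of 5.51, while RPS6KB2 had 13.1 RF RPKM over 83.9 mRNA RPKM, a TE of 0.156. RPS6KB1 thus had a TE above 89.5% of all genes and RPS6KB2 above 1.60% of them, at footprint levels that were close. RPS6KA3 equalled RPS6KB1 with a TE of 5.51, and its relative RPS6KA1 had 0.866. The other 6 members had TEs from 0.888 (MKNK2) to 1.54 (LARP1), below the median gene. With 1 mRNA library per treatment these ratios have no replicate check. RF and mRNA levels also rest on different counted lengths of a transcript (reads over RPKM), and the effect of this on TE was not tested.

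Silvestrol lowered footprints of both RSKs and LARP1, and EIF4EBP2 showed the largest difference of all members. In edgeR's quasi-likelihood test of the 4 RF libraries at 2 h, 3 of the 10 members fell (RPS6KA1, RPS6KA3 and LARP1) and 0 rose at a Benjamini-Hochberg adjusted p under 0.05, where 7.66% of all genes fell and 2.26% rose. For the 0 that rose, 5 members in all had an unadjusted p under 0.05, as had 3287 of the 10516 genes, of which RPS6KB2 was the one with a higher level, and DESeq2 also called 0 members higher. With the passage as a replicate block, 5 members fell, with EIF4EBP2 and MKNK1 added, and 1 rose, RPS6KB2. Of all genes, 28.1% fell and 25.0% rose in that fit. The block leaves little of each gene's own spread, so blocked p-values rest mostly on a spread pooled over genes. Without the block, 0 of all 10516 genes were called when either Silvestrol library was left out, so 0 members were. The changes themselves were of like size without replicate 1 or 2 of Silvestrol, at -0.87 and -0.90 for RPS6KA1, -0.88 and -1.14 for RPS6KA3 and -0.66 and -0.80 for LARP1. Without DMSO replicate 1 the 2 members called were RPS6KA3 and EIF4EBP2, both lower, where 723 of 10516 genes were called lower. The median log2 change of the members was -0.41, against -0.01 for all genes.

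**Figure D1:**
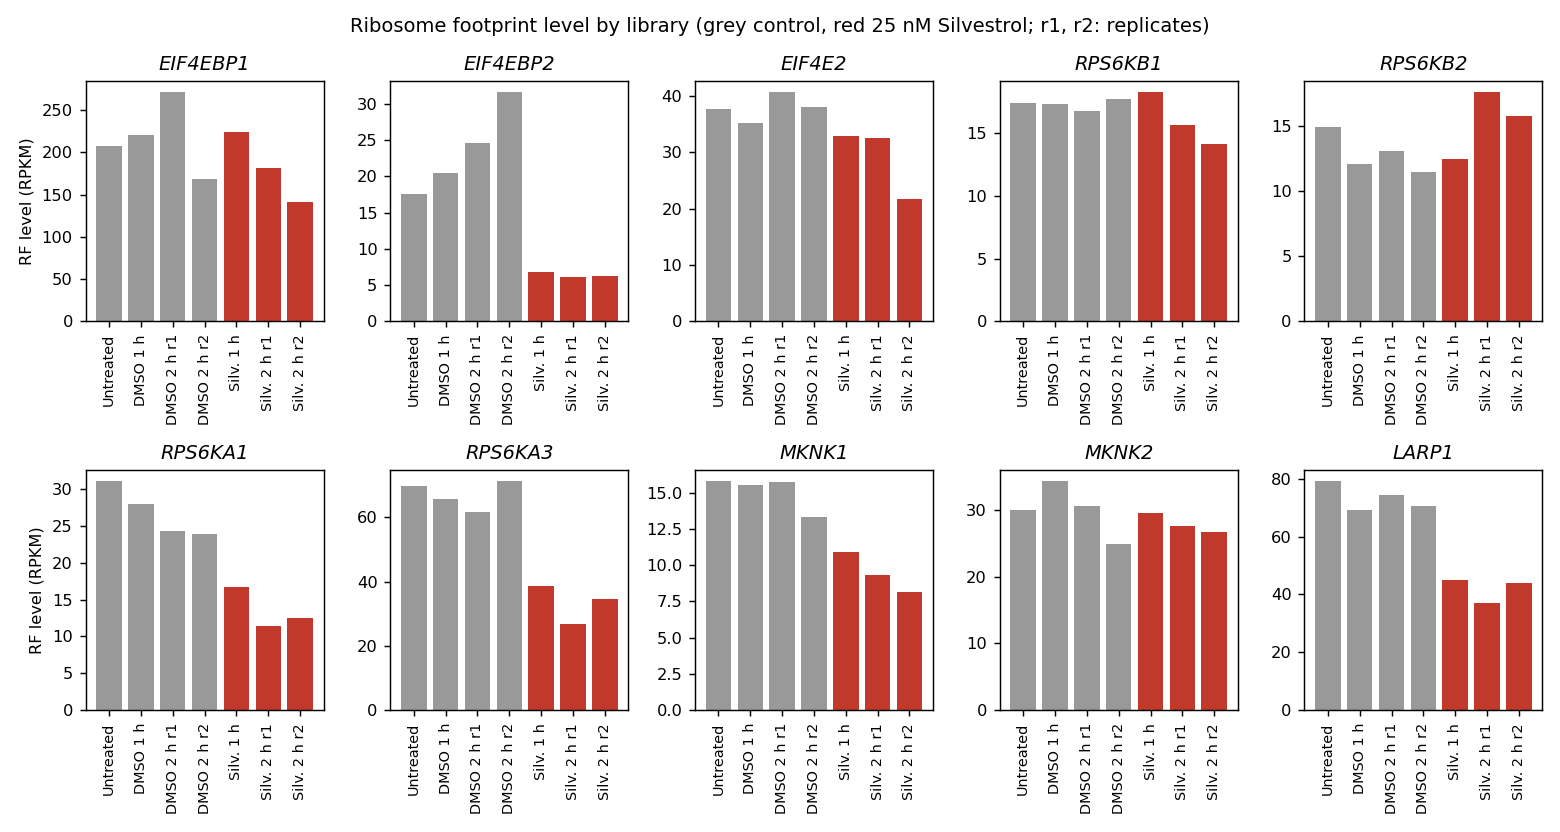
RF level in RPKM (vertical axes, each from 0) of the 10 members in the 7 RF libraries of the Silvestrol experiment, with control libraries in grey and libraries with 25 nM Silvestrol in red, 1 bar per library. The 3 Silvestrol libraries sit below all 4 control libraries for EIF4EBP2, EIF4E2, RPS6KA1, RPS6KA3, MKNK1 and LARP1, and overlap with them for the other 4 genes.

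Levels were also compared library by library, on the RPKM scale. For 6 of the 10 members all 3 Silvestrol RF libraries (1 h and 2 h) lay below all 4 control libraries, and for 0 they lay above, where 32.9% and 10.2% of all genes did so. The 6 were the 5 that fell with the block and EIF4E2, which passed the test in neither fit. On the RPKM scale the median RF change of all genes was itself below 0, at -0.18 at 1 h and -0.17 and -0.15 in replicates 1 and 2 at 2 h (log2).

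EIF4EBP2 (chr10:72163901-72188374, plus strand, hg19) encodes the 4E-BP that is most abundant in brain and that, like EIF4EBP1, is a substrate of mTOR complex 1. Its RFs were at 17.6 RPKM in untreated cells, 20.4 with DMSO for 1 h, and 24.6 and 31.6 with DMSO for 2 h, against 6.82 with Silvestrol for 1 h and 6.10 and 6.33 for 2 h. The groups were far apart, and the Silvestrol libraries agreed more closely with each other than the controls did. On the RPKM scale the log2 change was -1.58 at 1 h (95% counting interval -2.08 to -1.11), and at 2 h it was -2.01 (-2.62 to -1.45) in replicate 1 and -2.32 (-3.69 to -1.20) in replicate 2. These rest on few reads, 51 against 140 at 1 h, 30 against 177 in replicate 1 and 7 against 67 in replicate 2, and the intervals cover counting error only. mRNA of EIF4EBP2 differed far less, from 17.6 to 14.1 RPKM, a log2 change of -0.32 (-0.39 to -0.26). edgeR gave EIF4EBP2 an RF log2 change of -1.67 ± 0.38 (SE) with an adjusted p of 0.0541, just outside the threshold, and -1.54 ± 0.32 with an adjusted p of 8.6e-06 with the replicate block. The positions counted for this gene, seen as reads over RPKM, were 1.52, 1.40 and 1.23 times as long in the Silvestrol library as in its DMSO library (1 h, replicates 1 and 2), relative to the median gene. With this length as an offset the edgeR change was -2.11 ± 0.33 with an adjusted p of 0.0254, without the block. The median of all genes was then -0.11. Scaled by depth alone, the library-by-library changes were smaller, at -0.86 at 1 h and -1.44 and -1.98 in replicates 1 and 2.

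EIF4EBP1, the founding 4E-BP, behaved otherwise. It lies at chr8:37888052-37917883 on the plus strand. Its RFs were at 207 RPKM in untreated cells, 221 with DMSO for 1 h and 271 and 168 with DMSO for 2 h, and at 224, 182 and 141 RPKM with Silvestrol for 1 h and 2 h. The groups overlapped, and the DMSO replicates at 2 h were further apart from each other than either was from its Silvestrol partner. The RF log2 change in edgeR was -0.20 ± 0.22 and did not pass with or without the block (adjusted p 0.167 and 0.572). mRNA went from 181 to 124 RPKM, a log2 change of -0.54 (-0.61 to -0.47), in 1 library per arm. The genes whose 4 changes (RF at 1 h, both RF replicates at 2 h, and mRNA) lay nearest to those of EIF4EBP1 among 10425 others were LSMD1, CHCHD8 and C6orf129, as the table names them, at Euclidean distances of 0.119, 0.131 and 0.148 on the log2 scale.

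EIF4E2 (chr2:233415399-233433920, plus strand) encodes 4EHP, which binds the cap but not eIF4G and acts in repression of translation with GIGYF2. RFs were between 35.1 and 40.6 RPKM in the 4 control libraries and at 32.9, 32.6 and 21.6 RPKM with Silvestrol at 1 h and in replicates 1 and 2 at 2 h. All 3 were lower than the controls, by little except in replicate 2, which held 50 reads of the gene. The edgeR change of -0.28 ± 0.23 did not pass (adjusted p 0.456, and 0.245 with the block), and mRNA was at 38.3 and 37.2 RPKM.

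Neither S6 kinase passed the footprint test without the block. RPS6KB1 (chr17:57970482-58027935, plus strand), which encodes S6K1, had between 16.7 and 17.7 RPKM in control RFs and 18.2, 15.7 and 14.1 RPKM with Silvestrol, so that both 2 h libraries were below all controls and the 1 h library was above them. edgeR, which does not use the length, gave 0.06 ± 0.19 (adjusted p 0.864), and -0.14 and -0.07 with the counted-length offset as planned and centred, none of which passed. Its mRNA was higher with Silvestrol, at 4.99 against 3.04 RPKM, a log2 difference of 0.71 (0.56 to 0.86) that exceeded those of 87.4% of genes. RPS6KB2 (chr11:67195965-67202872, plus strand), which encodes S6K2, was the member whose RFs were higher. It had 14.9, 12.1, 13.1 and 11.5 RPKM in untreated, DMSO 1 h and both DMSO 2 h libraries, 12.4 RPKM with Silvestrol for 1 h, and 17.6 and 15.7 RPKM with Silvestrol for 2 h. Both 2 h libraries were above all controls, but the 1 h library was among them. The edgeR change was 0.57 ± 0.20, with an adjusted p of 0.131, and of 0.0015 with the block. RPS6KB2 mRNA went the other way, from 83.9 to 52.7 RPKM, a log2 difference of -0.67 (-0.73 to -0.61). The paralogues therefore differed in opposite directions in mRNA.

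Both RSKs fell in footprints, and they differed in mRNA. RPS6KA1 (chr1:26856252-26901516, plus strand), which encodes RSK1, had 31.1, 28.0, 24.3 and 23.8 RPKM in the controls and 16.7, 11.4 and 12.5 RPKM with Silvestrol. The edgeR change was -0.87 ± 0.16 with an adjusted p of 0.0383, and of 4.7e-09 with the block. Its mRNA was lower by a similar amount, 15.5 against 28.0 RPKM, a log2 change of -0.85 (-0.93 to -0.77), and 3.43% of genes had a lower value. RPS6KA3 (chrX:20168029-20285027, minus strand), which encodes RSK2, had 69.6, 65.7, 61.7 and 71.3 RPKM in the controls and 38.5, 26.9 and 34.6 RPKM with Silvestrol. Its change of -0.99 ± 0.15 had an adjusted p of 0.0284, and of 7.1e-18 with the block. mRNA of RPS6KA3 was not lower, with 12.6 against 11.2 RPKM (log2 0.17, 0.10 to 0.23).

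Of the MNKs, MKNK1 passed the test with the block and MKNK2 in neither fit. MKNK1 (chr1:47023079-47069940, minus strand) had 15.8, 15.5, 15.7 and 13.3 RPKM in the controls and 10.9, 9.29 and 8.13 RPKM with Silvestrol, without overlap. The edgeR change of -0.55 ± 0.22 did not pass without the block (adjusted p 0.171) and passed with it (0.0071). mRNA of MKNK1 was level, at 10.8 and 10.4 RPKM. MKNK2 (chr19:2037470-2051243, minus strand) had 24.9 to 34.3 RPKM in the controls and 26.6 to 29.5 RPKM with Silvestrol, inside the control range, and edgeR gave 0.09 ± 0.20 (adjusted p 0.782). Its mRNA was lower, 24.2 against 34.5 RPKM (log2 -0.51, -0.57 to -0.45).

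LARP1 (chr5:154134937-154197165, plus strand) was the most deeply read of the 10 genes, with 505 to 9271 reads per RF library at 1 h and 2 h. Its RFs were at 79.1, 69.3, 74.4 and 70.7 RPKM in the controls and at 45.0, 37.1 and 43.8 RPKM with Silvestrol, so that the groups were well apart. The RPKM log2 change was -0.62 (-0.68 to -0.57) at 1 h, and -1.002 (-1.07 to -0.93) and -0.69 (-0.84 to -0.55) in the replicates at 2 h. The replicates thus differed by more than their counting error. The edgeR change was -0.71 ± 0.13, with an adjusted p of 0.0379 and of 3.3e-12 with the block. mRNA was level at 48.2 and 47.1 RPKM, a log2 change of -0.04 (-0.07 to 7.5e-05).

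**Figure D2:**
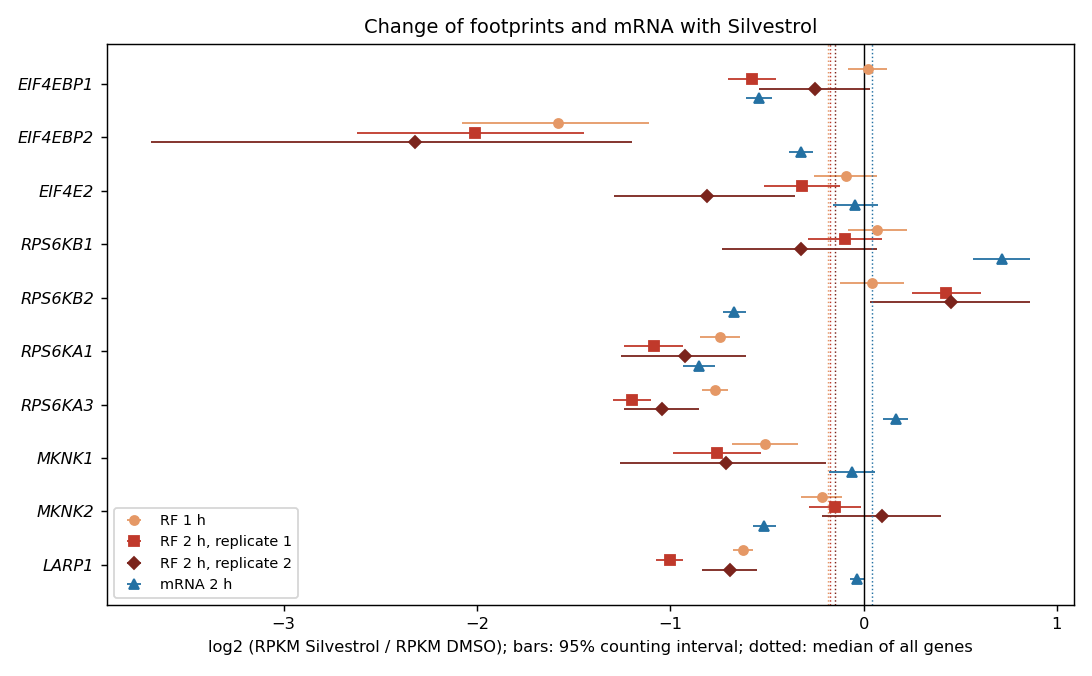
log2 ratio of RPKM with Silvestrol over DMSO (horizontal axis) for each member, for RFs at 1 h, RFs of both replicates at 2 h and mRNA at 2 h, with 95% counting intervals as bars and the median of all genes as dotted lines. EIF4EBP2 RFs lie at -1.58, -2.01 and -2.32, RPS6KA3, MKNK1 and LARP1 have lower RFs with level mRNA, RPS6KA1 has both lower, and RPS6KB2 has higher RFs at 2 h with lower mRNA.

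At 1 h only EIF4EBP2 of the 10 members was at or under a log2 RF change of -1, as were 7.98% of all genes, and scaled by depth alone, without the counted length, its change was -0.86 and no member was, where 5.13% of genes were. RPS6KA3 (-0.77), RPS6KA1 (-0.74), LARP1 (-0.62) and MKNK1 (-0.51) were next, each smaller in size than in either replicate at 2 h. The other 5 members were between -0.22 (MKNK2) and 0.07 (RPS6KB1). No mRNA of the 10 was past a log2 change of 1 in either direction at 2 h, where 6.57% of all genes were. The 1 h values come from 1 library per arm and were not tested.

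TE joins both readouts. In the edgeR interaction of assay and treatment over the 6 libraries at 2 h, 0% of genes were called in either direction, members included. At an unadjusted p under 0.05 there were 2594 genes, among them EIF4EBP2 (TE log2 change -1.33 ± 0.47), RPS6KA3 (-1.04 ± 0.26) and RPS6KB2 (1.36 ± 0.34), and DESeq2 called 542 genes lower and 399 higher, with RPS6KB2 (adjusted p 0.0260) the member among them. With the replicate block 3 members were lower and 2 were higher, where 22.9% of all genes were lower and 23.1% were higher. The 3 were EIF4EBP2 (-1.18 ± 0.31, adjusted p 0.0058), RPS6KA3 (-1.04 ± 0.18, adjusted p 0.00027) and LARP1 (-0.56 ± 0.17, adjusted p 0.0139). The 2 were RPS6KB2 (1.37 ± 0.21, adjusted p 0.00012) and MKNK2 (0.72 ± 0.20, adjusted p 0.0082), the first from RFs and mRNA that moved apart and the second from mRNA that was lower at level RFs. RPS6KA1, with RFs and mRNA lower alike, had a TE change of 0.09 ± 0.27 without the block. Without DMSO replicate 1, the fit that leaves out the block called EIF4EBP2 lower (adjusted p 0.0374) and RPS6KB2 higher (adjusted p 0.0333), where 640 and 362 of 10516 genes were called. All these values share 1 mRNA library per treatment, so error in the mRNA change of a gene is not seen by the test.

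**Figure D3:**
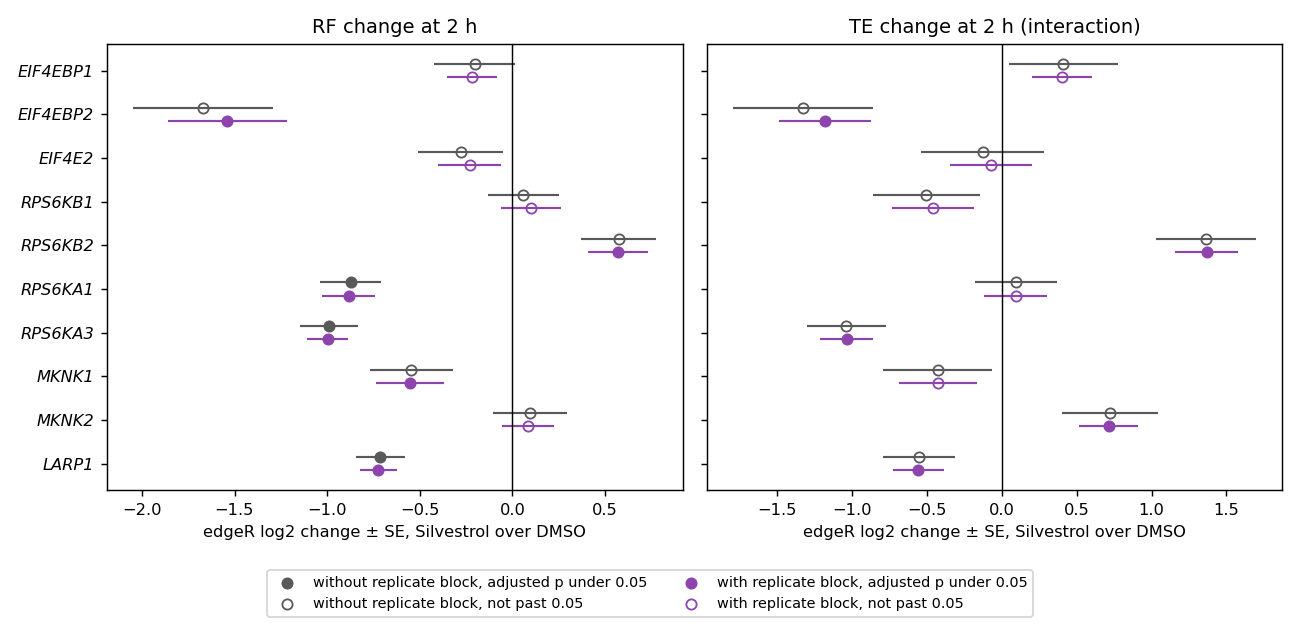
edgeR log2 change with Silvestrol at 2 h (horizontal axes, ± SE) of RFs (left, 4 libraries) and TE (right, interaction over 6 libraries) for each member, without (grey) and with (purple) the replicate block, filled where the adjusted p is under 0.05. RPS6KA1, RPS6KA3 and LARP1 pass for RFs in both fits, EIF4EBP2, MKNK1 and RPS6KB2 with the block, and no member passes for TE without the block.

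As a z-score over all genes, which places each TE change within the spread of 10516 genes and is not a test, no member reached the thresholds of -1.5 and 1.5 in the main libraries, where 6.52% and 4.62% of genes did. RPS6KB2 (1.42) and EIF4EBP2 (-1.39) came nearest, followed by RPS6KA3 (-1.06). Scaled by depth alone, without the counted length, EIF4EBP2 was at -1.05, behind RPS6KA3 at -1.08, and RPS6KB2 was at 1.43. With the RFs of replicate 2 over the same mRNA libraries EIF4EBP2 had -1.78, past the threshold, and RPS6KB2 had 1.49. The other 7 members were between -0.66 (LARP1) and 0.68 (MKNK2). The members' median was -0.17, against 0.03 for all genes.

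The annotated 5′ UTRs of the members, of interest because eIF4A unwinds this part of an mRNA, differed widely in length. LARP1 had the longest with 381 bases, and RPS6KA3 (277), EIF4EBP2 (257), MKNK1 (254) and MKNK2 (245) were also longer than the median of 134 bases over 9066 genes. RPS6KA1 had 160 bases, and the other 4 members had 64 (RPS6KB1) or fewer, with EIF4E2 shortest at 36. The 5 members whose RFs fell in the blocked test had 5′ UTRs of 160 to 381 bases, and MKNK2, which did not pass, had 245. When the counted-length offset was added to the block, EIF4EBP1 (40 bases, adjusted p 0.0331) and EIF4E2 (36 bases, adjusted p 0.0444) were also lower, in a fit that moved the median of all genes to -0.10. With the offset centred on the median gene neither passed (adjusted p 0.0508 and 0.0666). The member whose RFs rose there, RPS6KB2, had 52 bases. Predicted folding energies ran from -217 kcal/mol for LARP1 and -177 for RPS6KA3 to -11.9 for EIF4E2 and -8.10 for EIF4EBP1, with a median of -52.3 over all genes. GC content was above the median of 67.7% in all but MKNK1, which had 52.4% and 3 upstream ATGs. The comparison over 10 genes is a description, with no test.

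A run of CGG triplets, searched as CGGCGGCGGCGG on the transcript strand, was present in 3 of the 10 5′ UTRs and in 4.71% of 9066. The stretches that hold it are shown because their genes are one with the largest RF difference, one with equal falls of RFs and mRNA, and one with no RF change. The run is in capitals within 30 bases of the 5′ UTR, 5′ to 3′ on the transcript strand, from the MANE Select transcripts of GENCODE on GRCh37 (hg19).
EIF4EBP2 (chr10:72163971-72164000, plus strand): atcgagCGGCGGCGGCGGCGGCGGctgaga
RPS6KA1 (chr1:26856260-26856289, plus strand): agtgccgCGGCGGCGGCGGCGGacggccca
MKNK2 (chr19:2051177-2051206, minus strand): ccgcgctggCGGCGGCGGCGGcgctgttcc
The presence of the run therefore did not divide members with lower RFs from those without, and RPS6KA3, MKNK1 and LARP1 lacked these letters.

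TOP mRNAs, which LARP1 binds, start with a C followed by an unbroken row of pyrimidines. By that reading of the annotated start (C and at least 4 further pyrimidines) 0 of the 10 members and 5.48% of the 9066 genes had such a start. The longest leading pyrimidine row of a member was 2 bases, in MKNK1. The first 20 bases of the 5′ UTR are shown for the members with the lowest and highest TE changes and for LARP1 itself, with any leading pyrimidines in capitals, of which there are none here.
EIF4EBP2 (chr10:72163901-72163920, plus strand): gcttccggtcgtcgtcgtcg
RPS6KA3 (chrX:20285008-20285027, minus strand): agaaaggggcgagacccggt
LARP1 (chr5:154134937-154134956, plus strand): gtccatattgctgcagcccc
RPS6KB2 (chr11:67195965-67195984, plus strand): agtcagtgcgcggccaggta
These are annotated starts, and those used in MDA-MB-231 cells were not measured here.

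With INK128, RFs of EIF4EBP2 were again lower than with DMSO, while those of LARP1 and both RSKs were higher. Values of that experiment are in FPKM with 1 library per arm, so none was tested. TE was taken as the ratio of the deposited FPKM values, which the deposited TE columns do not equal. Total RNA of all genes had a median log2 change of -1.17 with INK128 while the RF median was 0.01. Total RNA changes are therefore given relative to the median gene, and TE changes as z-scores, which are centred on the mean. All 10 members had a total RNA log2 change at or under -1, as had 73.8% of genes, but at these low levels a pseudocount of 0.5 FPKM left 1 of the 10 and 14.8% of genes past it. Relative to the median they were between -0.28 (EIF4EBP1) and 0.15 (RPS6KB2).

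EIF4EBP2 RFs went from 2.41 to 1.03 FPKM, a log2 change of -1.24. It was the 1 member at or under -1, where 1.96% of genes were, and 1.45% of genes had a lower value. With a pseudocount of 0.5 FPKM its change was -0.93 and no member was at or under -1, where 1.91% of genes were. MKNK2 (19.1 to 13.9 FPKM, -0.46), EIF4EBP1 (51.6 to 42.4 FPKM, -0.28) and MKNK1 (7.13 to 5.93 FPKM, -0.26) were lower by less. EIF4E2 (31.9 to 29.3 FPKM, -0.12) and RPS6KB1 (3.82 to 3.95 FPKM, 0.05) were near the median gene. RPS6KA1 (9.22 to 10.4 FPKM, 0.17), RPS6KA3 (8.50 to 10.4 FPKM, 0.29) and LARP1 (13.0 to 15.96 FPKM, 0.30) were higher. RPS6KB2 was the highest, from 5.44 to 8.24 FPKM, a log2 change of 0.60 that exceeded 96.1% of genes.

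**Figure D4:**
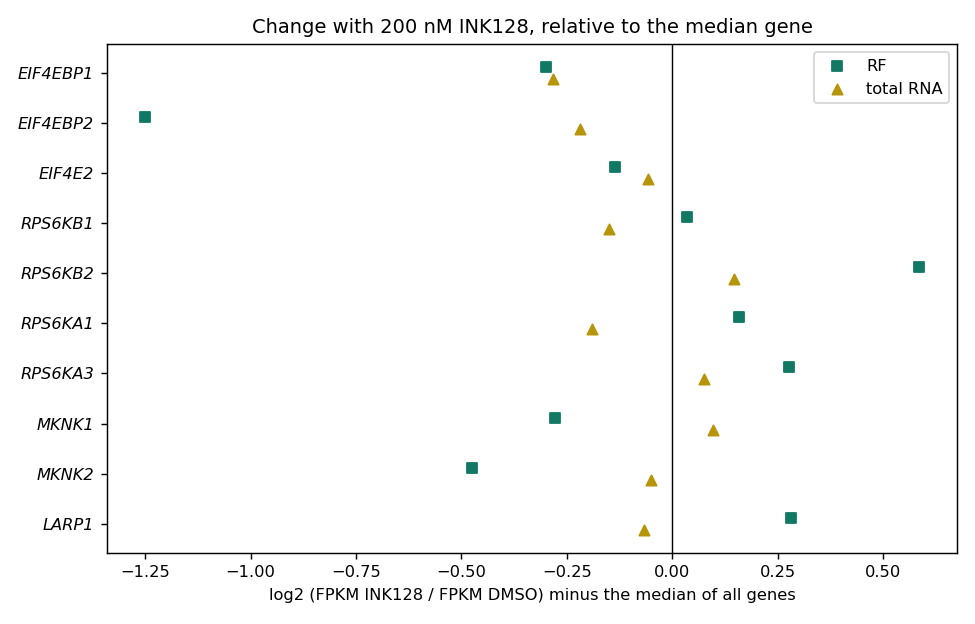
log2 ratio of FPKM with INK128 over DMSO minus the median of all genes (horizontal axis), for RFs (squares) and total RNA (triangles) of each member, with 1 library per arm and no error bar. Total RNA of the 10 genes lies within -0.28 to 0.15 of the median gene, while EIF4EBP2 RFs lie at -1.25 and RPS6KB2 RFs at 0.58.

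In TE z-scores with INK128, 1 of the 9 members that passed the minimum level was at or under -1.5, EIF4EBP2 with -1.89, and 0 were at or over 1.5, where 5.58% and 1.75% of genes were. When the spread was taken from genes with a mean of at least 5 FPKM, EIF4EBP2 had -0.48 and no member was past the threshold. RPS6KB2 (0.98), LARP1 (0.81) and RPS6KA1 (0.81) had the highest values and MKNK2 (-0.71) and MKNK1 (-0.61) were the next lowest. RPS6KB1 did not pass the minimum, with a mean of 0.174 FPKM in total RNA, and its value against the spread of the other genes was 0.49. The median gene was at 0.13, above EIF4EBP1 at 0.09. Side by side, EIF4EBP2 and MKNK1 were negative with both drugs, RPS6KB2, RPS6KA1 and EIF4EBP1 were positive with both, RPS6KA3, LARP1 and RPS6KB1 were negative with Silvestrol and positive with INK128, and MKNK2 (0.68 and -0.71) and EIF4E2 (0.04 and -0.03) the reverse. Several of the smaller INK128 values changed sign with the processing: RPS6KB1 was at -0.76 and -0.27 with pseudocounts of 0.5 and 0.1, EIF4EBP1 at -0.06 with median and MAD, and MKNK1 at 0.18, MKNK2 at 0.13 and EIF4E2 at 0.48 when the spread was taken from genes with a mean of at least 5 FPKM. With Silvestrol, EIF4E2 was at -0.49 with the RFs of replicate 2 and at -0.02 with a minimum mean of 5 RPKM. The low TE of RPS6KB2 in control cells was also present here, with a DMSO ratio of 2.65 that exceeded 6.70% of genes, whereas RPS6KB1, at 15.4, and RPS6KA3, at 14.6, were near the middle with 52.7% and 49.4% of genes below them. The high TE of these genes in the Silvestrol experiment was thus not seen in this one. A low ratio here was not particular to RPS6KB2. EIF4EBP2 was at 2.11, with 6.10% of genes lower, and LARP1 at 5.04, with 11.5% lower. In the Silvestrol experiment 38.3% of genes were below EIF4EBP2 and 42.3% below LARP1. The remaining members lay between 24.3% (RPS6KA1) and 58.7% (EIF4E2) here.

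**Figure D5:**
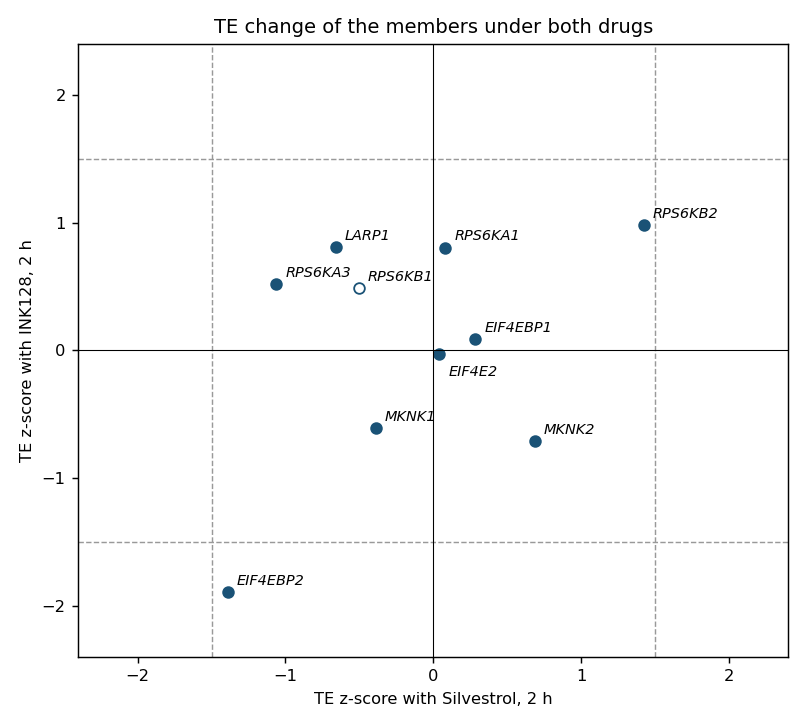
TE z-score with Silvestrol (horizontal axis) against TE z-score with INK128 (vertical axis), 1 point per member, with dashed lines at -1.5 and 1.5 and an open point for RPS6KB1, which was under the minimum level in the INK128 experiment. EIF4EBP2 lies at -1.39 and -1.89, RPS6KB2 at 1.42 and 0.98, and LARP1 at -0.66 and 0.81.

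The surrounding pathway was read in 3 lists. Of 14 upstream kinases and regulators 12 passed the minimum level, and 3 fell in RFs without the block and 0 rose, beside 7.66% and 2.26% of all genes. RPTOR, the mTOR complex 1 scaffold that recruits 4E-BPs and S6 kinases, fell by 1.08 on the log2 scale (adjusted p 0.0297), MAPK14, the p38α kinase, fell by 1.29 (adjusted p 0.0176), and MAP2K1, the ERK kinase MEK1, fell by 1.24 (adjusted p 0.0245). The list's median RF change was 0.09, and with the block 3 of its genes fell and 4 rose, beside 28.1% and 25.0% of all genes. RHEB, the GTPase that activates mTOR complex 1, had a Silvestrol z-score of 2.72, but its RFs went from 1.13 to 7.11 RPKM in replicate 1 and from 16.1 to 11.4 RPKM in replicate 2.

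Of 13 substrates and partners 12 passed, and without the block 1 fell and 0 rose, beside 7.66% and 2.26% of all genes, while 4 fell and 4 rose with it, beside 28.1% and 25.0%. The 1 was PDCD4, with RFs of 92.4 and 96.1 RPKM with DMSO and 24.8 and 22.5 RPKM with Silvestrol (log2 change -1.85 ± 0.15, edgeR adjusted p 0.0160) and a z-score of -2.51. EIF4B had a z-score of 2.22 at RF levels of 0.831 to 2.56 RPKM, in contrast to 61.6 FPKM in the DMSO library of the INK128 experiment, and its RF change did not pass without the block (adjusted p 0.323). With INK128, 9 of the list passed the minimum and 2 of them were under -1.5, beside 5.58% of all genes: PABPC1 (RFs from 178 to 37.9 FPKM, z-score -3.92) and RPS6 (1464 to 471 FPKM, z-score -2.63), both of which belong to the TOP mRNAs. Of 13 relatives of the members 10 passed. Without the block 3 of them fell with Silvestrol and 0 rose, beside 7.66% and 2.26% of all genes, and with the block 4 fell and 0 rose, beside 28.1% and 25.0% of all genes. Of the 3, RPS6KA5, which encodes MSK1, fell by 1.46 (adjusted p 0.0322), LARP7, the 7SK RNA partner, fell by 1.00 (adjusted p 0.0455), and LARP4B fell by 0.68 (adjusted p 0.0484). RPS6KA5 and LARP7 were also under -1.5, with z-scores of -2.24 and -2.27, where 6.52% of all genes were at or under it. The medians of the RF log2 changes were 0.06 for the substrates and -0.06 for the relatives.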

How the data were processed

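For the Silvestrol experiment the authors aligned reads to hg19 and UCSC KnownGene canonical transcripts with Bowtie and deposited, for each transcript, its count of uniquely mapped reads and RPKM values that leave out non-unique positions. For INK128 they deposited FPKM values per gene without counts, and the program is not given in the sources used here. Repeated lines were dropped (25758 of 38897 were distinct), and of a symbol with several entries the one with the highest mean RF RPKM was kept. Columns of the authors' means, TE, log2 changes and scores were not used, and 0 columns of per-sample values were left out.

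RF counts were tested with edgeR 4.0.16 (TMM, quasi-likelihood, 2 DMSO and 2 Silvestrol libraries at 2 h), and TE as the interaction of assay and treatment over 6 libraries, both over 10516 genes with Benjamini-Hochberg adjustment at 0.05. DESeq2 1.42.0 was an alternative. Both tests were tested on simulated data first. z-scores are of log2 [(RF drug/RNA drug)/(RF DMSO/RNA DMSO)] without a pseudocount over the genes that passed, and -1.5 and 1.5 are the study's thresholds. Counting intervals are exact binomial intervals of 95% on the reads of a pair of libraries, shifted to the RPKM scale, and cover counting error only. The labels give replicates 1 and 2 as passages 3 and 4 shared by both treatments, and the passage difference under DMSO correlated with that under Silvestrol (r = 0.738, 10516 genes), so the passage was used as a block beside the main test. Annotated 5′ UTRs were those of GENCODE version 44 on GRCh37, matched by symbol to 9066 of the 10516 genes, and were folded with RNAfold 2.7.2.

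The members, lists and tests were chosen with earlier results of these data known. All 10 members were named, and from the lists those genes called in the RF test without the block or past a z-score threshold. The 3 genes nearest to EIF4EBP1 in their changes were named too, and the same for LARP1 is not reported here.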

Additional observations from a re-analysis of the deposited data

Results flagged for a closer look

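For 2 members the RF change with Silvestrol at 1 h had the opposite sign to that in both replicates at 2 h. EIF4EBP1 had a log2 RPKM change of 0.021 at 1 h and of -0.57 and -0.25 at 2 h, and RPS6KB1 had 0.072 at 1 h and -0.10 and -0.33 at 2 h. The 1 h counting intervals of both (-0.08 to 0.12, and -0.08 to 0.23) and the replicate 2 intervals (-0.54 to 0.03, and -0.73 to 0.07) include 0, while of the replicate 1 intervals that of EIF4EBP1 (-0.70 to -0.45) does not and that of RPS6KB1 (-0.29 to 0.09) does. For EIF4EBP1 the edgeR RF change at 2 h was -0.20, and it was 0.06 without DMSO replicate 1, the same sign as at 1 h. For RPS6KB1 the opposite sign in both replicates depends on the scale: scaled by depth alone the change was 0.18 in replicate 1 and -0.18 in replicate 2, and relative to the median gene it was 0.08 and -0.18. The edgeR RF change of RPS6KB1 at 2 h was 0.06, and it was -0.08 without DMSO replicate 1, -0.14 with the counted-length offset and -0.07 with the centred one. The difference between the times was not tested, since 1 h has 1 library per arm.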

How the results depend on the processing

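RF calls of the members at 2 h (3 lower, 0 higher) became 5 lower and 1 higher with the replicate block, 7 and 1 when the counted-length offset was added (EIF4EBP1 and EIF4E2 joined, adjusted p 0.0331 and 0.0444), 5 and 1 when that offset was centred on the median gene, and ranged from 0 to 3 lower and 0 to 0 higher when 1 library was left out, with 0 of all genes called without either Silvestrol library. Without DMSO replicate 1 the 2 members called were RPS6KA3 and EIF4EBP2 (adjusted p 0.0386), and RPS6KA1 and LARP1 had 0.0564 and 0.0645. Over all genes, RF calls (805 lower, 238 higher) were 2956 and 2632 with the replicate block, 3228 and 1834 with the block and the offset, 3010 and 2435 with the block and the centred offset, 1014 and 615 by DESeq2, and 0 to 896 lower and 0 to 278 higher with 1 library left out. EIF4EBP2 also passed with no minimum level (adjusted p 0.0379) and DESeq2 gave it no adjusted p. The offset as planned moved the median RF change of all genes to -0.11, and centring it was chosen after seeing the data. TE calls of the members (0 and 0) were 3 lower and 2 higher with the block, with or without either offset, 0 lower and 1 higher by DESeq2, and 0 to 1 lower and 0 to 1 higher with 1 library left out. TE calls over all genes (0 and 0) were 2408 and 2431 with the block, 2477 and 2310 with the block and the offset, 2404 and 2368 with the block and the centred offset, 542 and 399 by DESeq2, 174 and 19 with no minimum, and 0 to 640 lower and 0 to 362 higher with 1 library left out. Where a library was left out of an arm, the lone library left was taken to vary like the other arm. The cause of these differences was not tested.

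Of the z-scores with Silvestrol, 1 member was at or under -1.5 with the RFs of passage 4 (EIF4EBP2, -1.78), where 704 of all 10516 genes were, and 1 at or over 1.5 with a pseudocount of 0.5 (RPS6KB2, 1.51), where 545 were, and at a threshold of 2 the counts over all genes were 264 and 144. With INK128, EIF4EBP2 left the threshold, for 0 members, at a threshold of 2 and when the spread was taken from genes with a mean of at least 5 FPKM (-0.48). Counts over all genes (396 and 124) were then 263 and 48, and 44 and 12, and they were 736 and 488 with no minimum and 870 and 487 with median and MAD. EIF4EBP2 was past a 2-fold RF change in neither depth-scaled counts without the length at 1 h (-0.86, 0 members) nor INK128 FPKM with a pseudocount of 0.5 (-0.93, 0 members), and 1 member was then past it in total RNA. No called value changed sign. Over single members, 361 values kept their side of the threshold, 35 gained it, 21 lost it and 23 values under it changed sign. Depth limits EIF4EBP2 most, at 7 to 177 reads per RF library at 2 h.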
